A study of Mus musculus with 6 samples.

Results

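The transcripts of the EGF receptor family were followed in HK-2 cells with and without USAG-1 overexpression. The set of 10 genes was chosen by gene symbol and held the receptors EGFR, ERBB2 and ERBB3, the ligands AREG, EREG, HBEGF, TGFA, BTC and NRG1, and the feedback inhibitor ERRFI1. All 10 were among the 39234 genes of the deposited table, and all 10 were among the 18188 genes with enough counts to be tested.

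HK-2 is an immortalized line from human proximal tubule, and USAG-1 is the secreted BMP antagonist encoded by SOSTDC1. Bulk RNA-seq covered 6 libraries from this line, 3 of control cells (Cont) and 3 of cells overexpressing USAG-1 (USAG1_OE), to compare the transcriptomes of both states. The labels call the genotype of all 6 WT, so the groups differed by the USAG-1 construct alone as far as they are described. The study's methods describe overexpression by transient plasmid transfection and a medium with fetal bovine serum, and state that the identity of the line was not tested by STR profiling. Mouse is given as the organism in the labels, although the line and the gene identifiers are human. An empty plasmid vector is listed in the methods, but whether these control cells received it is not stated for the sequenced libraries. The methods speak of biological replicates for most experiments without saying whether the sequencing was among them, so the p-values measure the spread between these samples, which may be technical.

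Control libraries 1 to 3 held 41236194, 48699471 and 44611384 counts on genes. USAG1_OE libraries 1 to 3 held 45448720, 43837891 and 42782931. At these depths, 3 counts, the level that a count of 0 allows, were worth between 0.0608 and 0.0719 CPM (the count scaled to the size of its library), a limit that covers counting error only. SOSTDC1 (ENSG00000171243) had 79, 80 and 60 counts in control libraries 1 to 3 and 5072, 3907 and 4438 counts in USAG1_OE libraries 1 to 3. Every library matched its label, with a log2 fold change of 5.94 (SE 0.13, edgeR adjusted p = 6.96e-07).

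Control library 3 stood apart from the rest of its group. On the second principal component, which carried 21.3% of the variance, it scored -54.3, against 28.2 and 25.2 for control libraries 1 and 2. Its counts differed from theirs by a chi-square per degree of freedom of 42.3 and 42.7, compared with 6.52 between control libraries 1 and 2 and 7.66 to 8.35 between USAG1_OE libraries. The results for the 10 family genes are therefore also given without it. The share of counts on mitochondrially encoded genes separated the groups, at 5.59%, 5.48% and 4.80% in control libraries 1 to 3 and 1.55%, 1.504% and 1.55% in USAG1_OE libraries 1 to 3.

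The cells carried part of the marker set of tubule epithelium. Of 19 such genes, 18 had counts. VIM had the highest CPM, a rank not corrected for length, and the list summed to 4828, 4715 and 5615 CPM in control libraries and 5145, 5367 and 5255 CPM in USAG1_OE libraries. LRP2, the endocytic receptor megalin, had no count in any library. CUBN, its partner cubilin, reached at most 0.359 CPM, the water channel AQP1 at most 0.188 CPM and the adhesion protein CDH1 at most 0.206 CPM. PAX8, a transcription factor of the kidney lineage, was at 380, 365 and 380 CPM in control libraries and 449, 455 and 441 CPM in USAG1_OE libraries. HAVCR1 was at 425 to 462 CPM over the 6 libraries. GGT1 was at 117, 112 and 85.1 CPM in control libraries and 164, 137 and 158 CPM in USAG1_OE libraries. Of the 14 tested genes, 3 were higher and 1 was lower (28.6% called, against 15.9% of all tested genes). Those higher were GGT1 (log2 fold change 0.55, edgeR adjusted p = 0.0208), CDH2 (0.28, edgeR adjusted p = 0.0263) and PAX8 (0.26, edgeR adjusted p = 0.0114). CDH6 was the lower one (-0.46, edgeR adjusted p = 0.0296). None was called without USAG1_OE library 1 or 3, when 6.92% and 7.09% of all tested genes were. Without control library 3, 8 were higher and 1 lower, when 27% of all tested genes were called. The genes named here other than VIM and LRP2 were picked from the list after their values were seen.

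Transcripts of a list of T and NK cell markers were also present, and most of them moved with the groups. Among these were those of the CD3 genes, which a tubule line is not known to make. All 18 genes of that list had counts, and 16 of them (88.9%, against 6.91% of all tested genes) were lower in USAG1_OE cells. Their sums were 139, 132 and 156 CPM in control libraries and 46.1, 39.2 and 35.8 CPM in USAG1_OE libraries, with none at 0 in all libraries. GNLY had the highest CPM in the control libraries and IL7R in the USAG1_OE libraries. IL7R was not called and went the other way, at 21.9, 21.0 and 17.8 CPM in control and 27.6, 23.6 and 21.9 CPM in USAG1_OE libraries, so that without it the sums were 117, 111 and 138 CPM against 18.6, 15.6 and 13.9 CPM. The median log2 fold change of the 18 genes was -3.14. GNLY is named after its values were seen. In bulk RNA, fewer cells of a type and less RNA per cell cannot be told apart. The 13 myeloid genes, with CD68 at the highest mean CPM, summed to 157, 131 and 244 CPM in control and 177, 209 and 219 CPM in USAG1_OE libraries, with 1 gene higher and 2 lower (23.1% called, against 15.9% of all tested genes). That count of 3 became 1 without control library 1 or without any single USAG1_OE library, 2 without control library 2 and 4 without control library 3. Of all tested genes, 10.2%, 8.74% and 27% were called without control library 1, 2 or 3. The shares were 6.92%, 5.98% and 7.09% without USAG1_OE library 1, 2 or 3. CD68 was the gene called higher, at 66.9, 62.7 and 92.3 CPM in control and 126, 110 and 113 CPM in USAG1_OE libraries. LYZ and ITGAM were the lower ones. S100A8, S100A9, S100A12 and CSF3R were highest in control library 3, and their groups overlapped. Sums for the 7 B cell genes, with IGHM at the highest mean CPM, were 10.5, 9.99 and 8.37 CPM against 6.12, 5.56 and 8.99 CPM. The platelet and erythroid list, with HBB at the highest mean CPM, varied without regard to group, at 8.19, 111 and 11.3 CPM in control and 77.9, 8.84 and 19.95 CPM in USAG1_OE libraries. Endothelial and fibroblast genes, with COL1A1 at the highest mean CPM and COL1A2 at 0, summed to between 8.70 and 12.4 CPM. Several EGF receptor ligands are also transcribed by blood cells, and the part of these transcripts in the results for the family was not tested. With mitochondrially encoded genes left out of the counts, an alternative added after seeing the data, the same 5 family genes were called as with them.

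The EGF receptor and its relatives are tyrosine kinases of the plasma membrane that pair with each other once a ligand binds. The ligands are made as membrane-bound precursors and shed by metalloproteases, and the activated receptors signal through RAS and ERK and through PI3K and AKT. In the proximal tubule, this system is known for driving the proliferation of surviving epithelial cells after acute injury.

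Of the 10 genes, 5 were higher in USAG1_OE cells with a Benjamini-Hochberg adjusted p under 0.05 in edgeR's quasi-likelihood test, and none was lower. These 5 were the receptors EGFR, ERBB2 and ERBB3, the ligand HBEGF and the inhibitor ERRFI1. Among all 18188 genes, 2884 (15.9%) passed the same threshold, 1628 (8.95%) of them higher and 1256 (6.91%) lower. At an unadjusted p under 0.05, edgeR, DESeq2 and limma-voom each counted 6 of the 10 genes higher and 1 lower, where edgeR counted 15.8% of all genes higher and 14.7% lower. The median log2 fold change was 0.19 over the 10 genes and -0.02 over all genes tested. The CPM values of the groups did not overlap for 9 of the 10 genes, as for 6832 (37.6%) of all genes. Without control library 3, 6 of the 10 genes were called, when 5091 genes (27.0%) were called in all. Only HBEGF and ERRFI1 were called without USAG1_OE library 2 or without USAG1_OE library 3, when 1137 (5.98%) and 1347 (7.09%) of all genes were called. Leaving out control library 1, control library 2 or USAG1_OE library 1 left 3 genes called, ERBB3, HBEGF and ERRFI1, when 1917 (10.2%), 1636 (8.74%) and 1306 (6.92%) of all genes were called.

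**Figure D1:**
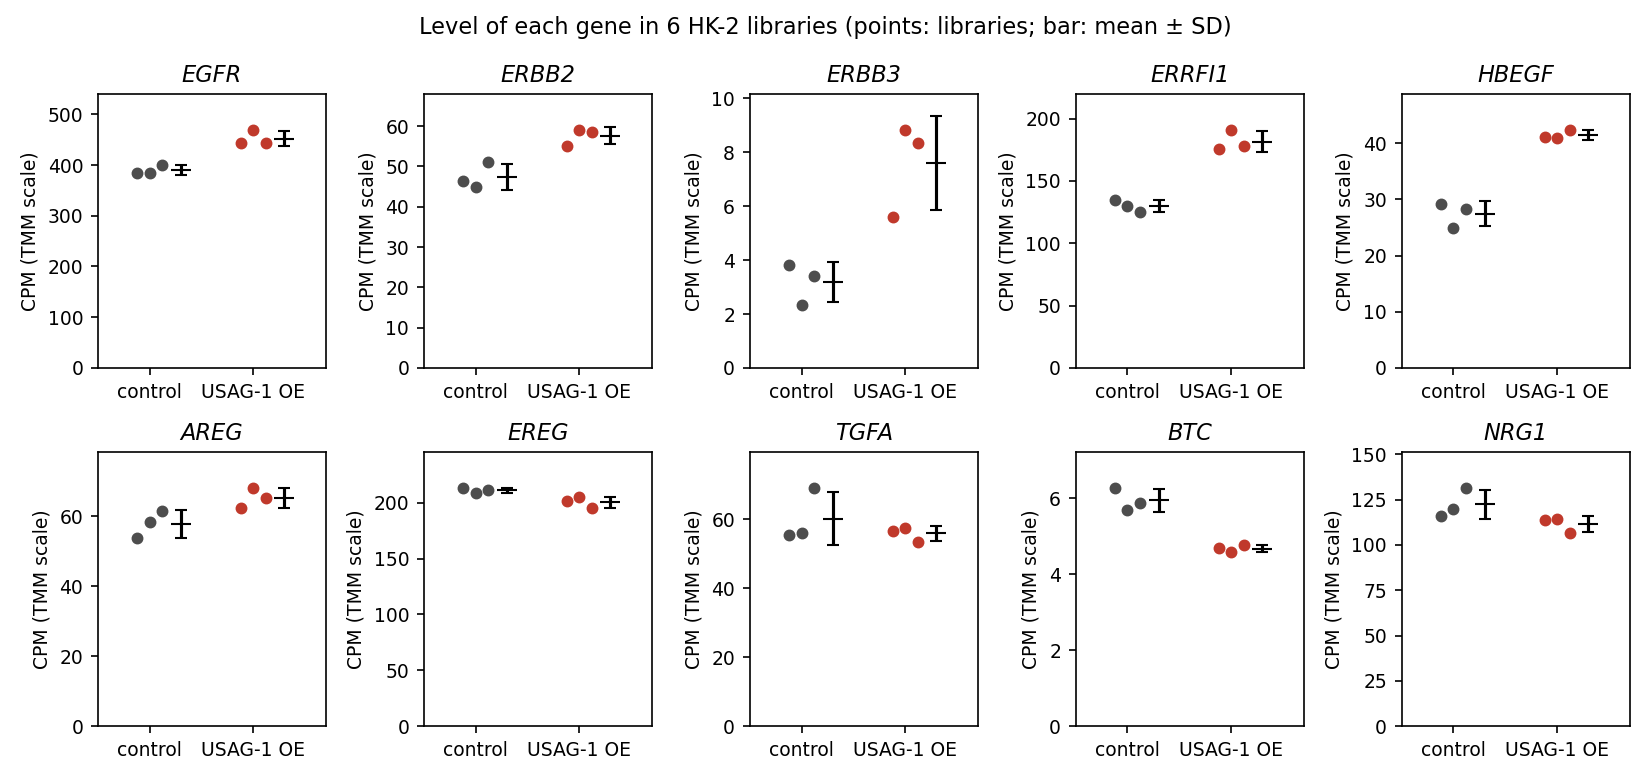
Level of each of the 10 genes in CPM (vertical axis, own scale for each gene) in 3 control and 3 USAG1_OE libraries, with points for libraries and bars for mean ± SD. Only for TGFA do the groups overlap, while HBEGF lies between 24.9 and 29.2 CPM in control libraries and between 40.9 and 42.4 CPM in USAG1_OE libraries.

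EGFR (ENSG00000146648, hg38 chromosome 7, 55019017 to 55211628, plus strand) encodes the receptor that binds EGF, TGF-alpha, amphiregulin and the other EGF-like ligands apart from the neuregulins. It was at 385, 384 and 401 CPM in control libraries 1 to 3 and at 444, 470 and 443 CPM in USAG1_OE libraries 1 to 3. All 3 USAG1_OE libraries lay above all 3 control libraries, and the libraries within a group stayed close together, with a coefficient of variation of 2.43% in control and 3.34% in USAG1_OE cells. The log2 fold change was 0.21 (SE 0.05, 95% interval 0.09 to 0.33, edgeR adjusted p = 0.0293), a rise of 15.9% in the fitted level. Without control library 3 it was 0.24 (edgeR adjusted p = 0.00113). The call was lost without control library 1 (0.21, edgeR adjusted p = 0.0895), control library 2 (0.20, 0.104), USAG1_OE library 1 (0.23, 0.0952), USAG1_OE library 2 (0.19, 0.127) or USAG1_OE library 3 (0.23, 0.0886), and also with no filter on low counts (0.21, 0.0568).

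ERBB2 (ENSG00000141736, chromosome 17, 39687914 to 39730426, plus strand) encodes the receptor that has no ligand of its own and serves as the preferred partner of the others. Its level was 46.3, 44.9 and 51.0 CPM in control libraries and 55.1, 59.1 and 58.6 CPM in USAG1_OE libraries. The groups did not overlap, although control library 3 came nearer to the USAG1_OE libraries than the other controls did. The log2 fold change was 0.28 (SE 0.07, 95% interval 0.12 to 0.44, edgeR adjusted p = 0.0309), and 0.34 without control library 3 (edgeR adjusted p = 0.00157). Leaving out control library 1 (0.27, edgeR adjusted p = 0.0932), control library 2 (0.24, 0.107), USAG1_OE library 1 (0.31, 0.0747), USAG1_OE library 2 (0.27, 0.128) or USAG1_OE library 3 (0.27, 0.111) ended the call, as did testing without a filter on low counts (0.28, 0.0555). ERBB2 shares sequence with MIEN1 and PGAP3 on the opposite strand, whose counts came to 31.0% and 19.0% of its own. The library kit marks strand, but the sources used here do not say whether the counting used it, so reads of these genes may have been exchanged and the level of ERBB2 is uncertain to that extent. Both overlapping genes were lower in USAG1_OE cells, MIEN1 by a log2 fold change of -0.60 (SE 0.14, edgeR adjusted p = 0.0233) and PGAP3 by -0.51 (SE 0.11, edgeR adjusted p = 0.0211). The call of MIEN1 was lost without control library 1 (-0.62) or USAG1_OE library 1 (-0.53), 2 (-0.61) or 3 (-0.66), and that of PGAP3 without control library 2 (-0.50) or USAG1_OE library 1 (-0.45), 2 (-0.56) or 3 (-0.52).

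ERBB3 (ENSG00000065361, chromosome 12, 56076799 to 56103486, plus strand) encodes a neuregulin receptor with little kinase activity, which recruits PI3K when a partner phosphorylates it. It had 159, 116 and 145 counts in control libraries and 257, 386 and 360 counts in USAG1_OE libraries, or 3.81, 2.35 and 3.40 CPM against 5.60, 8.84 and 8.34 CPM. Every USAG1_OE library was above every control library, with USAG1_OE library 1 the lowest of its group. The log2 fold change of 1.25 (SE 0.24, 95% interval 0.70 to 1.81, edgeR adjusted p = 0.0115) was the largest among the 10 genes. It was also the least precise, since the libraries of a group varied by 23.6% in control and 23.0% in USAG1_OE cells, and 116 counts carry a counting error of 9.28%. It was 1.31 without control library 3 (edgeR adjusted p = 0.00684), whereas the call was lost without USAG1_OE library 2 (1.13, edgeR adjusted p = 0.0594) or USAG1_OE library 3 (1.18, edgeR adjusted p = 0.0548). ERBB4, the remaining neuregulin receptor of the family, had no count in any library, so all receptor transcripts detected at this depth came from EGFR, ERBB2 and ERBB3.

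ERRFI1 (ENSG00000116285, chromosome 1, 8004404 to 8026309, minus strand) encodes MIG6, which binds the kinase domain of active EGF receptors, blocks it and is itself induced by EGF signaling. The 3 control libraries had 135, 130 and 125 CPM and the 3 USAG1_OE libraries 175, 191 and 178 CPM. The gap between the groups was wider than the spread within either. ERRFI1 had a log2 fold change of 0.48 (SE 0.06, 95% interval 0.34 to 0.62, edgeR adjusted p = 0.00211), a rise of 39.7% in the fitted level, and 0.46 without control library 3 (edgeR adjusted p = 1.76e-04). It was called in all 14 alternative settings, at log2 fold changes of 0.45 to 0.51.

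HBEGF (ENSG00000113070, chromosome 5, 140332843 to 140346603, minus strand) encodes heparin-binding EGF-like growth factor, a ligand of EGFR and ERBB4 that tubule cells are known to induce early after injury. Counts corresponded to 29.2, 24.9 and 28.3 CPM in control libraries and to 41.1, 40.9 and 42.4 CPM in USAG1_OE libraries. The USAG1_OE libraries were nearly alike, and the lowest of them was well above the highest control. A log2 fold change of 0.59 (SE 0.08, 95% interval 0.42 to 0.77, edgeR adjusted p = 0.00233) corresponded to a rise of 51.0% in the fitted level. It was 0.62 without control library 3 (edgeR adjusted p = 4.19e-04), and HBEGF was called in all 14 alternative settings, at 0.53 to 0.64. Among the 6 ligands of the set, HBEGF was the only one called with all 6 libraries.

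AREG (ENSG00000109321, chromosome 4, 74445136 to 74455005, plus strand) encodes amphiregulin, a ligand that binds EGFR alone. It was at 53.6, 58.4 and 61.4 CPM in control libraries and at 62.4, 68.0 and 65.0 CPM in USAG1_OE libraries. The groups did not overlap, but control library 3 and USAG1_OE library 1 lay next to each other. With a log2 fold change of 0.17 (SE 0.07, 95% interval 0.01 to 0.34, edgeR adjusted p = 0.142) AREG did not pass the threshold, whereas it did without control library 3 (0.22, edgeR adjusted p = 0.0195).

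EREG (ENSG00000124882, chromosome 4, 74365145 to 74388749, plus strand) encodes epiregulin, which binds EGFR and ERBB4. Its level was 213, 209 and 211 CPM in control libraries and 202, 205 and 195 CPM in USAG1_OE libraries. Every USAG1_OE library was slightly below every control library. Its log2 fold change of -0.08 (SE 0.05, 95% interval -0.19 to 0.04, edgeR adjusted p = 0.364) did not pass the threshold, nor did that of -0.07 without control library 3 (edgeR adjusted p = 0.196).

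BTC (ENSG00000174808, chromosome 4, 74744759 to 74794523, minus strand) encodes betacellulin, another ligand of EGFR and ERBB4. It had 262, 281 and 251 counts in control libraries and 215, 200 and 206 counts in USAG1_OE libraries, or 6.28, 5.69 and 5.89 CPM against 4.68, 4.58 and 4.77 CPM. The groups did not overlap, with the USAG1_OE libraries lower. At a log2 fold change of -0.35 (SE 0.13, 95% interval -0.65 to -0.05), BTC was not called after adjustment over all genes (edgeR adjusted p = 0.115), and the value was the same to 2 decimals without control library 3 (edgeR adjusted p = 0.123). With 200 counts in the lowest library, the counting error alone was 7.07%.

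TGFA (ENSG00000163235, chromosome 2, 70447284 to 70553826, minus strand) encodes TGF-alpha, a ligand of EGFR long known as an autocrine growth factor of epithelial cells. It stood at 55.5, 56.1 and 69.1 CPM in control libraries and at 56.6, 57.6 and 53.5 CPM in USAG1_OE libraries. Control library 3 was above all the others, which were mixed between the groups. The log2 fold change was -0.11 (SE 0.09, 95% interval -0.32 to 0.11, edgeR adjusted p = 0.492) with that library and 0.01 without it (edgeR adjusted p = 0.908), so its sign rested on a single library, and it was -0.16 without control library 1 (edgeR adjusted p = 0.365).

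NRG1 (ENSG00000157168, chromosome 8, 31639222 to 32774046, plus strand) encodes neuregulin 1, the ligand of ERBB3 and ERBB4 in the set. It was at 116, 120 and 131 CPM in control libraries and at 114, 115 and 106 CPM in USAG1_OE libraries. The USAG1_OE libraries were all lower, with only a narrow gap between USAG1_OE library 2 and control library 1. Its log2 fold change of -0.13 (SE 0.07, 95% interval -0.29 to 0.02, edgeR adjusted p = 0.225) did not pass the threshold, and it was -0.07 without control library 3 (edgeR adjusted p = 0.266). ERBB3 transcripts were thus higher in USAG1_OE cells while no change in those of its ligand passed the test.

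**Figure D2:**
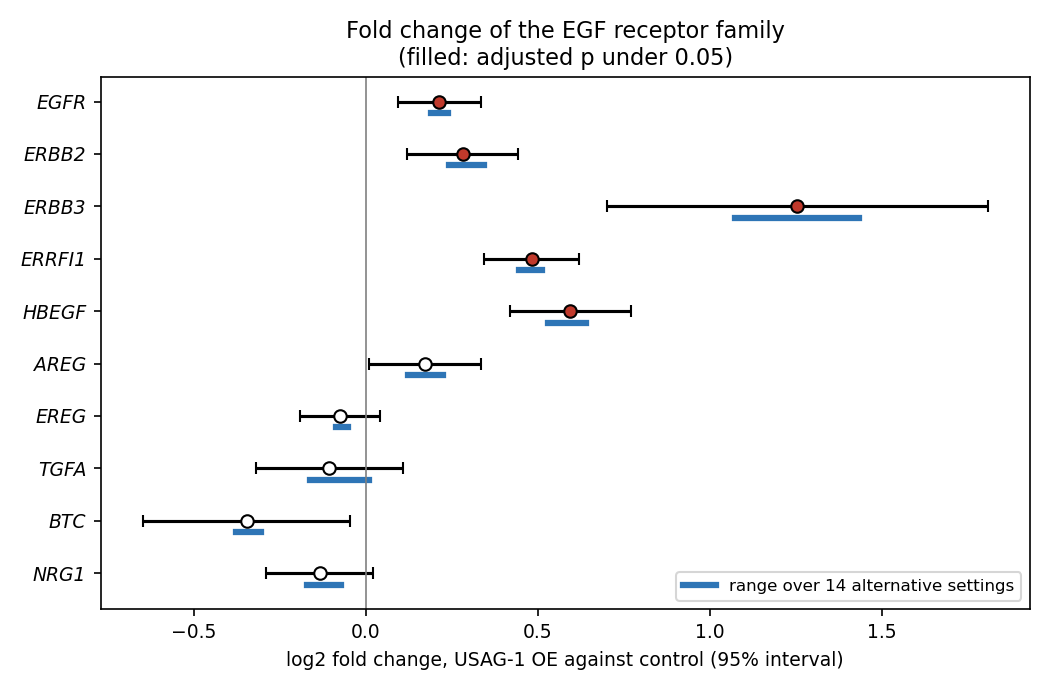
Log2 fold change of USAG1_OE against control (horizontal axis) for each of the 10 genes, with 95% intervals, filled points for an adjusted p under 0.05, and thick lines for the range over 14 alternative settings. The called genes run from 0.21 for EGFR to 1.25 for ERBB3, and the range for TGFA ends at 0.01.

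Of the other members of the family with counts, only EGF had enough of them to be tested with all 6 libraries. EGF, the founding ligand of the family, had 127, 270 and 139 counts in control libraries and 286, 262 and 192 counts in USAG1_OE libraries. Control library 2 lay within the range of the USAG1_OE libraries, so the groups overlapped, and the log2 fold change of 0.50 (SE 0.25, 95% interval -0.09 to 1.08, edgeR adjusted p = 0.230) did not pass the threshold. With single libraries left out it ranged from 0.35 without control library 1 (edgeR adjusted p = 0.469) to 0.82 without control library 2 (edgeR adjusted p = 0.0562), and it was 0.39 without control library 3 (edgeR adjusted p = 0.322). EPGN, which encodes the ligand epigen, had 9, 9 and 0 counts in control and 4, 6 and 0 counts in USAG1_OE libraries, and the neuregulin gene NRG4 had 52 counts over all 6 libraries, too few to test either. NRG2 and NRG3 were not analysed here.

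EPGN, EREG, AREG and BTC lie within 486 kb of each other on chromosome 4, from the start of EPGN at 74308470 to the end of BTC at 74794523. The log2 fold changes of the tested genes of this cluster had different signs, at -0.08 for EREG, 0.17 for AREG and -0.35 for BTC, and none of these was called. Nearby genes were examined within 200 kb of each of the 10 genes. There were 55 tested neighbors, AREG and EREG themselves included, of which 11 were called (20%, against 15.9% of all genes), 5 higher and 6 lower. GRB7, the gene of an adaptor that binds ERBB2, was higher, whereas MIEN1 and PGAP3 at the same locus were lower. Near ERBB3, CS, ESYT1 and RNF41 were higher and RPL41 was lower among 24 tested genes. LANCL2 near EGFR and MTHFD2L near AREG and EREG were lower, as was TNFRSF9 near ERRFI1, where PER3 was higher. NRG1 had no tested neighbor. The neighbors are named because they were called, and all of the called ones lay near these 6 genes.

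Counts of the ligands and receptors were also set against those of EGFR in the same library, a ratio that does not depend on the scaling between libraries. These ratios were chosen after the values had been seen and compare libraries, not levels of different genes. For ERBB2 there were 12.02, 11.7 and 12.7 counts per 100 counts of EGFR in control libraries and 12.4, 12.6 and 13.2 in USAG1_OE libraries. The groups overlapped, so the ratio of these receptors was not separated between the groups. For ERBB3 the ratio was 0.989, 0.612 and 0.848 per 100 in control libraries and 1.26, 1.88 and 1.88 in USAG1_OE libraries, with no overlap. For HBEGF it was 7.57, 6.49 and 7.06 against 9.25, 8.71 and 9.57, also without overlap and higher in USAG1_OE libraries. The ratios of EREG, NRG1, TGFA and BTC were lower in USAG1_OE libraries, with no overlap, but the EGFR counts they are divided by were themselves higher there. None of these 4 ligands was called, and in CPM the groups overlapped for TGFA. EREG had 55.3, 54.4 and 52.7 counts per 100 of EGFR in control libraries and 45.4, 43.6 and 44.0 in USAG1_OE libraries. NRG1 had 30.1, 31.2 and 32.8 against 25.6, 24.4 and 24.0, and TGFA 14.4, 14.6 and 17.2 against 12.8, 12.3 and 12.1. BTC had 1.63, 1.48 and 1.47 against 1.05, 0.975 and 1.08. ERRFI1 had 35.04, 33.8 and 31.2 against 39.5, 40.7 and 40.1, higher in every USAG1_OE library. The ratio of AREG overlapped between the groups, at 13.9, 15.2 and 15.3 against 14.1, 14.5 and 14.7.

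Counts of HBEGF were also higher in USAG1_OE libraries relative to those of EREG, TGFA and AREG. There were 13.7, 11.9 and 13.4 HBEGF counts per 100 EREG counts in control libraries and 20.4, 19.98 and 21.8 in USAG1_OE libraries. Against 100 TGFA counts there were 52.6, 44.4 and 40.96 in control libraries and 72.5, 71.0 and 79.3 in USAG1_OE libraries. Against 100 AREG counts the numbers were 54.4, 42.7 and 46.1 compared with 65.8, 60.1 and 65.2. In all 3 ratios every USAG1_OE library was above every control library. These ratios too were chosen after the values had been seen, with HBEGF the only ligand of the set that was called. Their separation follows from the CPM values given above and adds no support to that call. The share of other gene pairs whose ratios separate the groups was not determined. With 3 libraries a group, the smallest p that an exact two-sided permutation test can reach is 0.1, and the ratios were not tested.

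The genes that release the ligands were followed as a list of 9, all tested. Of these, 1 was higher and 1 lower, which is 22.2% called against 15.9% of all genes, and the median log2 fold change was 0.03 against -0.02. ADAM10, a sheddase of betacellulin and EGF, was at 168, 166 and 153 CPM in control libraries and 201, 194 and 190 CPM in USAG1_OE libraries. All USAG1_OE libraries were higher, with a log2 fold change of 0.27 (SE 0.06, edgeR adjusted p = 0.0208). RHBDF2 encodes iRhom2, which carries the sheddase ADAM17 to the cell surface, and was at 13.99, 17.6 and 16.3 CPM in control libraries and 10.4, 12 and 9.25 CPM in USAG1_OE libraries. All USAG1_OE libraries were lower, with a log2 fold change of -0.60 (SE 0.13, edgeR adjusted p = 0.0205). The related gene RHBDF1, named after its values were seen, went the other way without being called (log2 fold change 0.21, edgeR adjusted p = 0.133). It was at 18.4, 18.9 and 17.1 CPM in control libraries and 22.5, 20.7 and 19.95 CPM in USAG1_OE libraries. FRMD8, which stabilizes iRhom proteins, had a log2 fold change of -0.23 (edgeR adjusted p = 0.0779) and the metalloprotease gene ADAM9 one of 0.33 (edgeR adjusted p = 0.128), or 0.20 without control library 3 (edgeR adjusted p = 0.0873), and neither was called. Genes overlapping ADAM9 had 7613 counts against its own 5396, so its level is uncertain for the reason given for ERBB2. ADAM17 itself, the main sheddase of HB-EGF, amphiregulin and TGF-alpha, named after its values were seen, was at 67.4 to 70.3 CPM in all 6 libraries (log2 fold change 0.01, edgeR adjusted p = 0.894). The call of ADAM10 was lost without control library 2 (0.28), USAG1_OE library 1 (0.25), USAG1_OE library 2 (0.27) or USAG1_OE library 3 (0.29). That of RHBDF2 was lost without control library 2 (-0.53), USAG1_OE library 1 (-0.59) or USAG1_OE library 3 (-0.51).

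Inhibitors of the receptors and genes of their turnover were a list of 20, of which 19 were tested and SH3GL2 had no count. Of the tested genes, 6 were higher (31.6%, against 8.95% of all genes higher) and the median log2 fold change was 0.14. RNF41 encodes NRDP1, a ubiquitin ligase that directs ERBB3 to degradation, and was at 27.3, 26.7 and 36.8 CPM in control libraries and 45.4, 48.8 and 50.1 CPM in USAG1_OE libraries. The USAG1_OE libraries were all higher, and control library 3 was the highest control. Its log2 fold change was 0.67 (SE 0.12, edgeR adjusted p = 0.00997), so that the transcripts of ERBB3 and of a ligase acting on it were higher together. PTPN1, a phosphatase that acts on EGFR, had a log2 fold change of 0.34 (SE 0.06, edgeR adjusted p = 0.0113). EPS15, an endocytic adaptor named after the EGF receptor, had one of 0.34 (SE 0.07, edgeR adjusted p = 0.014), and USP8, a deubiquitinase of endosomal receptors, one of 0.45 (SE 0.10, edgeR adjusted p = 0.0203). Without USAG1_OE library 2 or without USAG1_OE library 3, edgeR called 0 genes of this list, while 8 and 7 of them were higher at an unadjusted p under 0.05, as were 12% and 12.9% of all genes. The log2 fold changes were then 0.66 and 0.64 for RNF41, 0.32 and 0.33 for PTPN1, 0.34 and 0.35 for EPS15 and 0.46 and 0.48 for USP8. Without USAG1_OE library 1, 2 of the list and 6.92% of all genes were called, and EPS15 (0.35) and USP8 (0.41) were lost. Without control library 2, 3 of the list and 8.74% of all genes were called, and PTPN1 (0.32) was lost. Without control library 3, 8 of the list were called higher and 1 lower, when 27% of all genes were called.

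Adaptors and effectors were a list of 32, all tested. Here 8 were higher and 1 was lower, which is 28.1% called against 15.9% of all genes, and the median log2 fold change was 0.10. GRB7 was at 10.7, 6.59 and 8.18 CPM in control libraries and 16.1, 16.5 and 15.5 CPM in USAG1_OE libraries. The controls varied more than the USAG1_OE libraries, and the groups did not overlap, with a log2 fold change of 0.92 (SE 0.17, edgeR adjusted p = 0.00986). ARAF, a kinase between RAS and MEK, had a log2 fold change of 0.27 (SE 0.06, edgeR adjusted p = 0.026). GAB1, a docking protein that links receptors to PI3K, had one of 0.46 (SE 0.12, edgeR adjusted p = 0.0355). STAT5A, a transcription factor that EGF receptors can activate, was the gene that was lower, at -0.28 (SE 0.07, edgeR adjusted p = 0.0324). STAT5B on the opposite strand overlaps it and had 8000 counts against its own 8745. The level of STAT5A is uncertain for the reason given for ERBB2. The remaining called genes, named because they were called, were HRAS and the PI3K subunit genes PIK3CA, PIK3CB, PIK3R1 and PIK3R2. The call of GRB7 was lost without USAG1_OE library 2 (0.90). Those of ARAF (0.23 to 0.28) and STAT5A (-0.32 to -0.25) were lost without any of the 5 libraries other than control library 3, and that of GAB1 (0.44 to 0.49) without control library 2 or any USAG1_OE library, STAT5A and GAB1 also with no filter on low counts. With no filter on low counts 2 genes of the list were called, when 6.26% of all genes were. Without control library 1 there were 3, when 10.2% of all genes were called. Without control library 2, USAG1_OE library 1 or USAG1_OE library 3 there was 1, when 8.74%, 6.92% and 7.09% of all genes were called. Without USAG1_OE library 2 edgeR called 0, with 8 higher and 1 lower at an unadjusted p under 0.05 (12% and 11% of all genes). Without control library 3 it called 14, when 27% of all genes were called.

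Transcripts known to be induced by ERK were a list of 20, all tested. Like the other lists, it was chosen with earlier results of these data known. In USAG1_OE cells 13 were higher and 1 was lower, which is 70% called against 15.9% of all genes, and the median log2 fold change was 0.33. ETV5, a transcription factor induced by ERK, was at 46.5, 50.0 and 51.0 CPM in control libraries and 81.7, 80.6 and 80.4 CPM in USAG1_OE libraries. The USAG1_OE libraries were nearly alike and far above the controls, with a log2 fold change of 0.72 (SE 0.06, edgeR adjusted p = 4.36e-04). Genes overlapping ETV5 had 6046 counts against its own 17324. DUSP5, a nuclear ERK phosphatase, had a log2 fold change of 0.76 (SE 0.08, edgeR adjusted p = 0.00127). SPRY4, an inhibitor of RAS signaling, had one of 0.69 (SE 0.09, edgeR adjusted p = 0.00219), and PHLDA1, which is induced by growth factors, one of 0.41 (SE 0.05, edgeR adjusted p = 0.00265). These 4 genes were called in all 14 alternative settings. The gene that was lower, DUSP4, another ERK phosphatase of the nucleus, was at 1.72, 1.26 and 1.34 CPM in control libraries and 0.588, 0.275 and 0.255 CPM in USAG1_OE libraries, a log2 fold change of -1.94 (SE 0.39, edgeR adjusted p = 0.0146). Its call was lost without control library 1 (-1.79, edgeR adjusted p = 0.0529), USAG1_OE library 2 (-1.76, 0.0677) or USAG1_OE library 3 (-1.72, 0.0596). Of the list, 6 genes were called without USAG1_OE library 2, 8 without USAG1_OE library 3 and 9 without control library 1. Of all genes, 5.98%, 7.09% and 10.2% were called in these fits. Without control library 2 or USAG1_OE library 1, 9 were higher and 1 lower, when 8.74% and 6.92% of all genes were called. Without control library 3, 14 were higher and 1 lower, when 27% of all genes were called. FOS, FOSL1, JUNB, MYC, CCND1 and HMGA1 were not called with all 6 libraries. DUSP4 and these 6 genes were named after their values were seen.

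**Figure D3:**
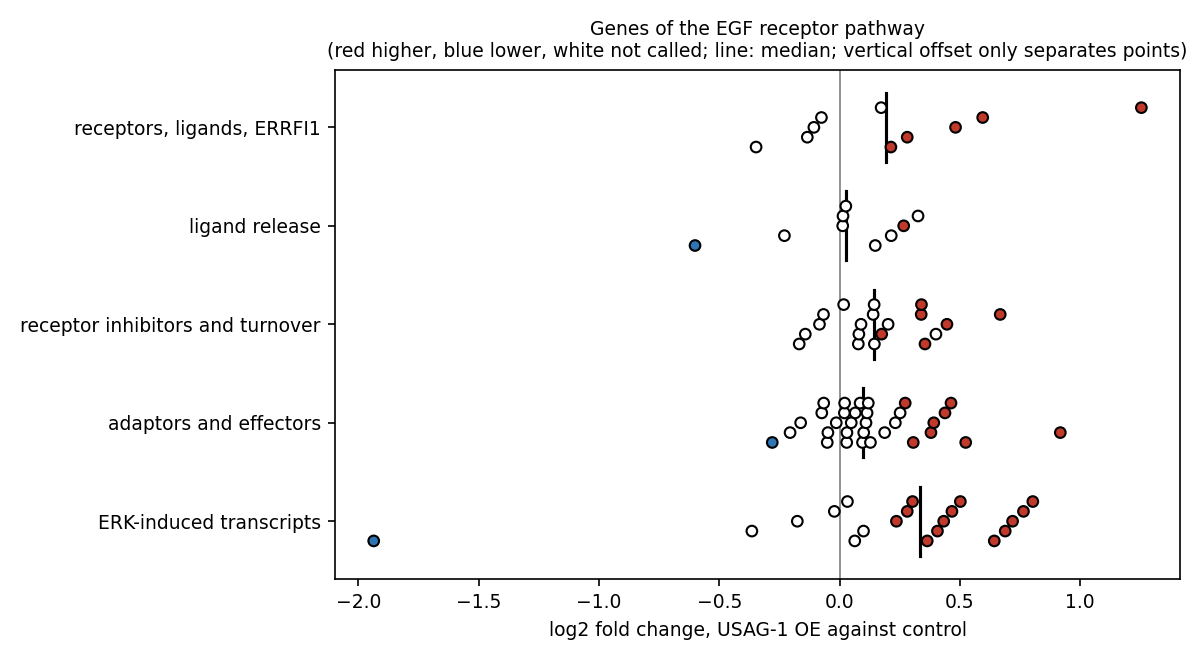
Log2 fold change of USAG1_OE against control (horizontal axis) for the 10 genes and 4 lists of the pathway, with 1 point per tested gene (red higher, blue lower, white not called) and a line at each median. The medians are 0.19 for the 10 genes, 0.03 for ligand release, 0.14 for inhibitors and turnover, 0.10 for adaptors and effectors and 0.33 for ERK-induced transcripts.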

How the data were processed

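The authors deposited whole-number counts per gene, not normalized, for 6 HK-2 libraries, together with gene symbols and positions. The submitters' processing notes name cutadapt 1.9, FastQC and build hg38, while the aligner, the counting tool, its use of strand and the annotation are not given in the sources used here. The labels describe both oligo(dT) selection and removal of ribosomal RNA.

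Groups came from the sample titles. With R 4.3.3 and edgeR 4.0.16, genes were filtered by filterByExpr, scaled by TMM and tested by the quasi-likelihood test for USAG1_OE against control, with Benjamini-Hochberg adjustment over 18188 genes and calls at an adjusted p under 0.05 at any fold change. CPM values are on the TMM scale. The standard error (SE) is the size of the log2 fold change over the square root of F, and intervals are 95%. The study's methods name DESeq2, so DESeq2 1.42.0 was run as an alternative, beside limma-voom (limma 3.58.1), DESeq2 size factors, library sizes alone, a minimum of 10 counts in every library, no filter on low counts, the replicate number as a block and each library left out. Leaving out mitochondrially encoded genes was added after seeing the data. The principal components used log2 CPM with a prior count of 2. The code was tested on simulated data, and figures were drawn with Python 3.11.15 and matplotlib 3.10.9.

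By rule, the genes named were SOSTDC1, the 10 family genes, the other family members, the 4 genes with the smallest p in each pathway list and, of each marker list, the gene with the highest mean CPM and the defining genes at 0. Any other gene named was chosen after its values were seen. The members and lists were chosen with earlier results of these data known. No transcript lengths were used, so apart from naming the gene with the highest CPM of each marker list, levels were not compared between genes.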

Additional observations from a re-analysis of the deposited data

How the results depend on the processing

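Over 14 alternatives, HBEGF, ERRFI1 and SOSTDC1 were called in each, and EREG, BTC, NRG1 and TGFA in none. TGFA changed sign without control replicate 3 (0.00992). When each gene's result was set beside each alternative, 338 kept direction and side of the threshold, 52 kept direction but lost the call, 1 gained it and 1 changed sign. Other scalings, DESeq2's Wald test, limma-voom, at least 10 counts in every library and mitochondrial genes left out (added after seeing the data) each called the same 5 family genes, among 2848 to 3761 genes in all.

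With no filter on low counts, where 2034 of 32507 genes (6.26%) were called, 3 family genes were called, all higher, and 2 adaptors and effectors. EGFR (0.21, edgeR adjusted p = 0.0568) and ERBB2 (0.28, edgeR adjusted p = 0.0555) then missed the threshold.

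Leaving out each library in turn, with fewer samples in the fit, gave 1137 to 5091 called genes (5.98% to 27% of those tested). Of these, 630 to 2985 were higher and 507 to 2106 lower. The same fits gave 2 to 6 family genes, all higher. The lists ranged from 0 to 3 for ligand release, 0 to 9 for inhibitors and turnover, 0 to 14 for adaptors and effectors and 6 to 15 for ERK-induced transcripts. The log2 fold change ranged from 0.19 to 0.24 for EGFR, 0.24 to 0.34 for ERBB2, 1.07 to 1.43 for ERBB3, 0.12 to 0.22 for AREG and -0.16 to 0.01 for TGFA.

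With the replicate block, 2381 genes and 4 family genes were called, and EGFR had a log2 fold change of 0.21 (edgeR adjusted p = 0.071). STAT5A (-0.28, edgeR adjusted p = 0.0726) and GAB1 (0.47, edgeR adjusted p = 0.0526) then missed the threshold too. The deviations of libraries with the same number correlated across genes at 0.0701, -0.0544 and 0.0371, and control libraries 2 and 3 correlated best with another number (0.0991 and 0.107), so the numbers were not taken as pairs.

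Of the tested family genes, ERBB3, EGF and BTC had the fewest counts in a library, which limits their precision. Nothing here measures protein, ligand shedding or receptor phosphorylation, and 3 libraries a group leave small changes undetected.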
